A study of Homo sapiens with 16 samples.

Results

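Interferon-stimulated genes are the genes that cells switch on when an interferon, a signalling protein released on virus infection, binds its receptor. The 43 genes described here were chosen by symbol from a list of such genes, out of 23340 gene symbols measured. They were followed in CCLP1, an established human cell line grown from a tumour of the intrahepatic bile ducts (cholangiocarcinoma), by sequencing of polyadenylated RNA. The 16 libraries form 8 groups of 2 in 3 experiments on PRH, a homeodomain transcription factor encoded by HHEX, and on NOTCH3, a receptor of the Notch pathway. Experiment 1 set a pair of clones carrying a short hairpin RNA (shRNA) against HHEX beside a pair carrying a non-targeting shRNA. Experiment 2 set parental CCLP1 infected with an adenovirus carrying myc-tagged PRH beside the same cells given an empty adenovirus, each in 2 separate infections. The labels call that control virus empty, whereas its 2 columns in the deposited table carry the name AdGFP, so what it expresses is uncertain. Experiment 3 gave the myc-PRH or the empty adenovirus to a line with an shRNA against NOTCH3 and to a line with a non-targeting shRNA, again in 2 infections each. Thus all 12 libraries of experiments 2 and 3, controls included, came from virus-infected cells, whereas no library of experiment 1 did, and the 2 libraries of a group in experiment 3 are infections of a line and not separate lines.

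Viral RNA in the cytoplasm is read by the sensors RIG-I (DDX58) and MDA5 (IFIH1), and the interferons that follow act through JAK1 and TYK2 on a transcription factor complex that includes STAT2 and IRF9. That complex binds a DNA element, the interferon-stimulated response element, in the promoters of its target genes. The products of these genes degrade viral RNA, block viral entry, translation or release, modify proteins with the ubiquitin-like ISG15, and feed back on the sensors and on the interferon regulatory factors.

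The core of that element, GAAANNGAAA or TTTCNNTTTC on the other strand, was searched in the RefSeq promoters of GRCh38.p14, which run from 250 bases before to 50 after the annotated start of a gene. Of the 43 genes 33 had a promoter there, and 22 of the 33 held the core (66.7%, exact binomial 95% confidence interval 48.2% to 82.0%). Over all 27305 genes with a promoter the share was 4.38%, and over all 35116 promoters 3.57%. The 6 stretches shown are those with a match and the smallest adjusted p for the PRH virus in control shRNA cells, because these genes carry the response described further on. Each has 30 bases on either side of a match, 5′ to 3′ on the strand of the gene, with the matching letters in capitals.
OAS3: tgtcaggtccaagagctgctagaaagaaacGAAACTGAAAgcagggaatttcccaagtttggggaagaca
ISG15: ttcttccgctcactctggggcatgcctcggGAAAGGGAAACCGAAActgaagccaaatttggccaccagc
IFIT3: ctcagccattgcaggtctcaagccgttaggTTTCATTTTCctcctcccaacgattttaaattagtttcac
HERC5: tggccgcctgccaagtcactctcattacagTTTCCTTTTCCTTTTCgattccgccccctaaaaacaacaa
IFI6: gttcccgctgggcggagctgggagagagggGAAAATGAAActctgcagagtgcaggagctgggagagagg
PARP14: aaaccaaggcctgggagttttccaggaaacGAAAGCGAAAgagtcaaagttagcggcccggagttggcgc
They lie at chr12:112938301-112938370, chr1:1013354-1013423, chr10:89327811-89327880, chr4:88456964-88457033, chr1:27672309-27672378 and chr3:122680780-122680849, with IFI6 on the minus strand and the others on the plus strand. The matches start 143, 113, 156, 125, 156 and 29 bases upstream of the annotated start. In ISG15 and HERC5 2 matches share bases, so that the capitals run on. A match of letters is a description of the sequence. Among the genes that rose with the PRH virus in control shRNA cells 11 of 17 with a promoter held the core, and among those tested that did not pass 8 of 11 did.

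Values are normalised counts, scaled by the authors within each experiment, so groups are set side by side within an experiment only. Reads assigned to genes numbered 31136366 to 65190592 per library in experiment 1. They numbered 20795552 to 28037741 in experiment 2, the shallowest, and 47257779 to 69899040 in experiment 3. HHEX stood at 314 and 326 in PRH shRNA clones against 580 and 554 in control clones, and its level with the PRH virus was 69971 to 101992 in experiment 2. In experiment 3 it was 228980 and 330421 with the PRH virus in control shRNA cells but 71910 and 46576 in cells labelled NOTCH3 shRNA. NOTCH3 itself goes against that label, since it stood at 655 and 1018 in cells labelled NOTCH3 shRNA and at 711 and 838 in control shRNA cells, both with the empty virus. These libraries also differ in bile duct markers: the summed level of 10 cholangiocyte markers was 362835 to 461224 in the 4 libraries labelled NOTCH3 shRNA and 5489 to 14703 in the 4 control shRNA libraries, in which KRT19, the bile duct keratin, was at 0.852 to 55.4. In experiment 2 KRT19 was at 11.7 to 36.6, so this defining marker was low in those cells too. Of 12 leukocyte markers, 5 to 8 were at 0 in each library and 1 to 5 reached 10. Their sum in control shRNA cells was 6470 and 10956 with the PRH virus against 4200 and 6402 with the empty virus. In each of these libraries only 3 of the 12 reached 10, so the sum rests on few genes. The part of other cell types in the results was not tested.

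Of the 43 genes, 40 reached 10 normalised counts in at least 1 library of experiment 1, 25 in experiment 2 and 38 in experiment 3. The other 3, 18 and 5 count as not measured there. Genes with at least 10 in at least 2 libraries of an experiment were tested, which left 34, 22 and 37 of the 43. A gene low in 1 group could enter only through a group in which it was high. Parental cells were silent for part of the set with either virus: MX2 and EPSTI1 had 0 reads in all 4 libraries of experiment 2, and OAS1 was at 0 to 3.32.

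**Figure D1:**
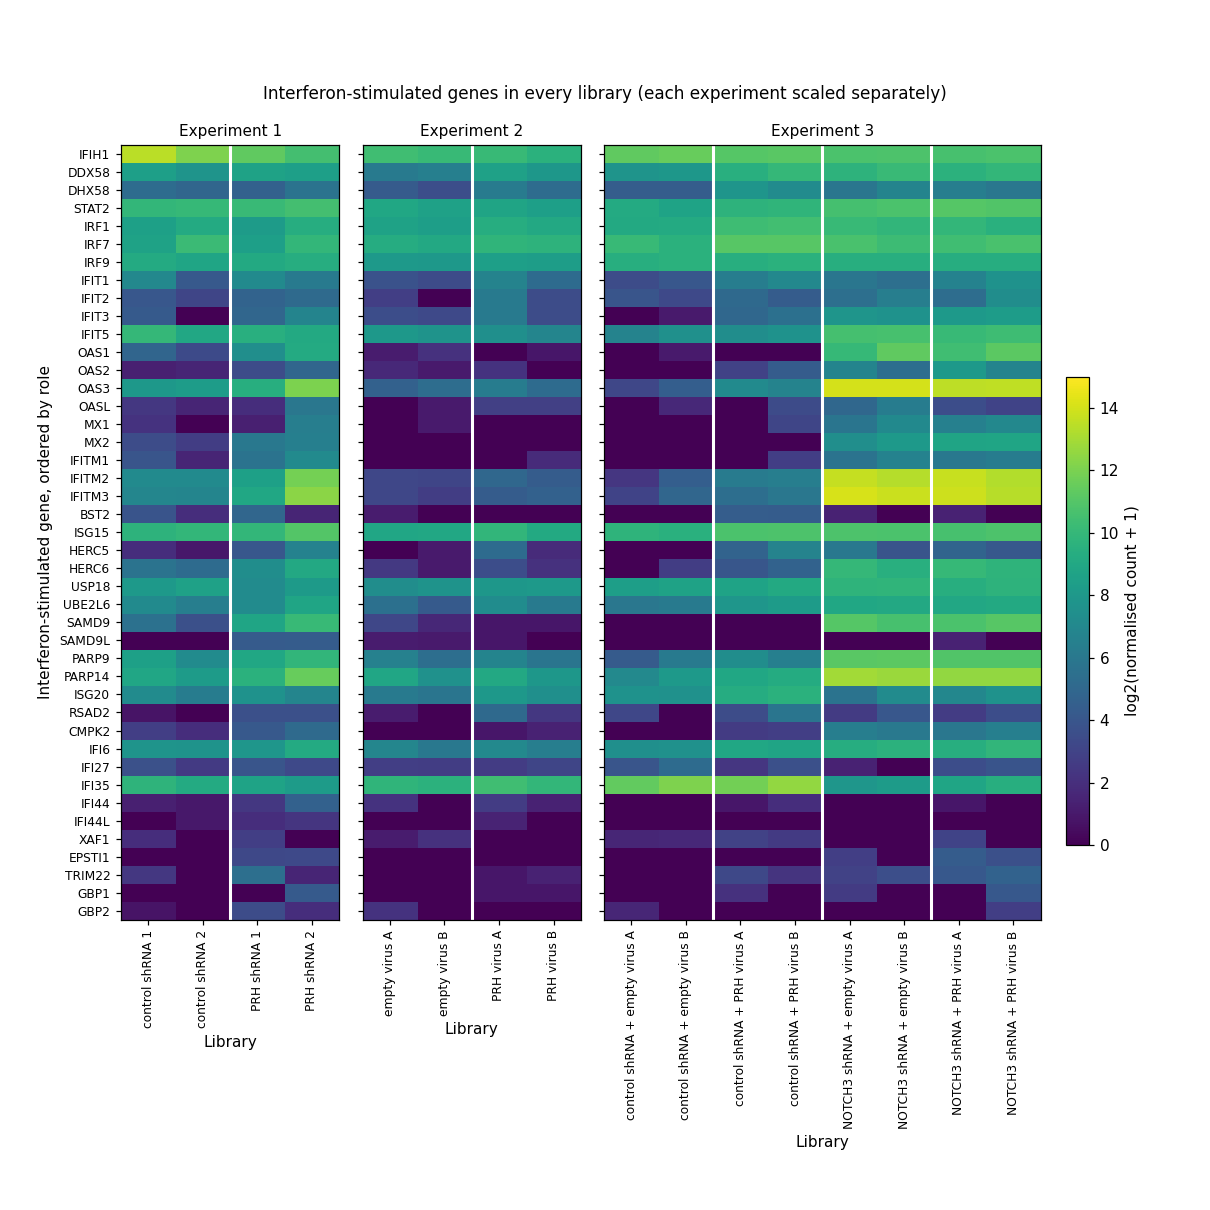
Level of each of the 43 interferon-stimulated genes (rows, ordered by role) in each of the 16 libraries (columns), as log2(normalised count + 1), with 1 panel per experiment. In experiment 3 the 4 libraries labelled NOTCH3 shRNA stand high in OAS1, OAS3, IFITM2, IFITM3, SAMD9 and PARP14, for example SAMD9 at 1598 to 2162 where the 4 control shRNA libraries are at 0.

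The first comparison asked what lies higher or lower where PRH is lowered. No interferon-stimulated gene passed the test between PRH shRNA and control shRNA clones (0 of 34 higher and 0 of 34 lower), and over all 14511 genes tested 0% passed in either direction. The values nevertheless lay mostly on one side. In 22 of the 34 both PRH shRNA clones stood above both control clones, and in 2 both stood below, where over all genes 12.3% and 11.7% did. SAMD9L, RSAD2, OAS2, HERC5 and CMPK2, counted in the 22, reached the filter only through the PRH shRNA clones. For these genes that order was fixed by entry to the test, and the filter acted on all genes alike. The median log2 fold change of the 34 was 1.29, against -0.07 over all genes tested.

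Both clones carried more SAMD9, a protein that restricts poxviruses, with 456 and 1087 in PRH shRNA clones 1 and 2 against 48.3 and 11.5 in control clones 1 and 2. The log2 fold change was 4.83 (SE 0.91, unadjusted p = 0.00225, adjusted p = 0.321 in limma). Its neighbour SAMD9L stood at 18.8 and 19.8 against 0 and 0, at least 7.63-fold higher by a floor of 3 counts per library. OAS1, which makes the oligoadenylates that activate RNase L, stood at 169 and 569 against 28.5 and 9.54, and MX2, a dynamin-like GTPase that blocks viruses at the nuclear pore, at 62.2 and 88.1 against 10.2 and 5.73. The groups did not overlap in any of these 4 genes, an order fixed by entry for SAMD9L, and their adjusted p-values in limma lay between 0.321 and 0.322.

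The 2 PRH shRNA clones were far apart in several others. IFITM3, a membrane protein that blocks viral entry, stood at 485 in clone 1 and 5412 in clone 2 (117 and 112 in the controls), its paralog IFITM2 at 363 and 3692 (144 and 142), and OAS3 at 690 and 4252 (250 and 315). Counts of IFITM2 and IFITM3, which are near-identical, may be shared. PRH shRNA clone 2 lay above clone 1 in 26 of the 34, with a median of clone 1 minus clone 2 of -1.0 in log2, against -0.09 over all genes. The control clones were split the other way. Control clone 1 lay above clone 2 in 26 of the 34 and below it in 7, with a median of 0.70, against 0.02 over all genes. The cholangiocyte marker sum was 28893 in clone 1 and 136342 in clone 2, against 8274 and 12247 in the control clones, and its part in these values was not tested.

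The sensor IFIH1 ran the other way, at 2568 and 1441 against 11221 and 4345, and IFI35 stood at 417 and 302 against 848 and 567. Among the transcription factors the groups overlapped in IRF1, IRF7 and IRF9, with log2 fold changes between -0.23 and 0.22, and STAT2 stood at 1159 and 1483 against 993 and 1068. At an unadjusted p under 0.05 there were 14 members higher and 1 lower, against 5.35% and 1.25% of all genes. edgeR called 0 of the 34 and 0 of all 14511 genes, while DESeq2 called 10 members higher and 0 lower, against 4.14% and 0.703% of all genes. The 10 were IFITM1, IFITM2, IFITM3, OAS1, OAS3, MX2, HERC5, HERC6, SAMD9 and PARP14. Without PRH shRNA clone 1 limma called 9 members, against 4.35% of all genes, and without control clone 1 it called 5, against 2.62%. Without PRH shRNA clone 2 or control clone 2 it called 1, against 1.15% and 0.358%. Each of these fits leaves 1 library in a group, which is assumed to vary like the libraries of the other groups in the fit, and the same holds for every fit without 1 library given further on.

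**Figure D2:**
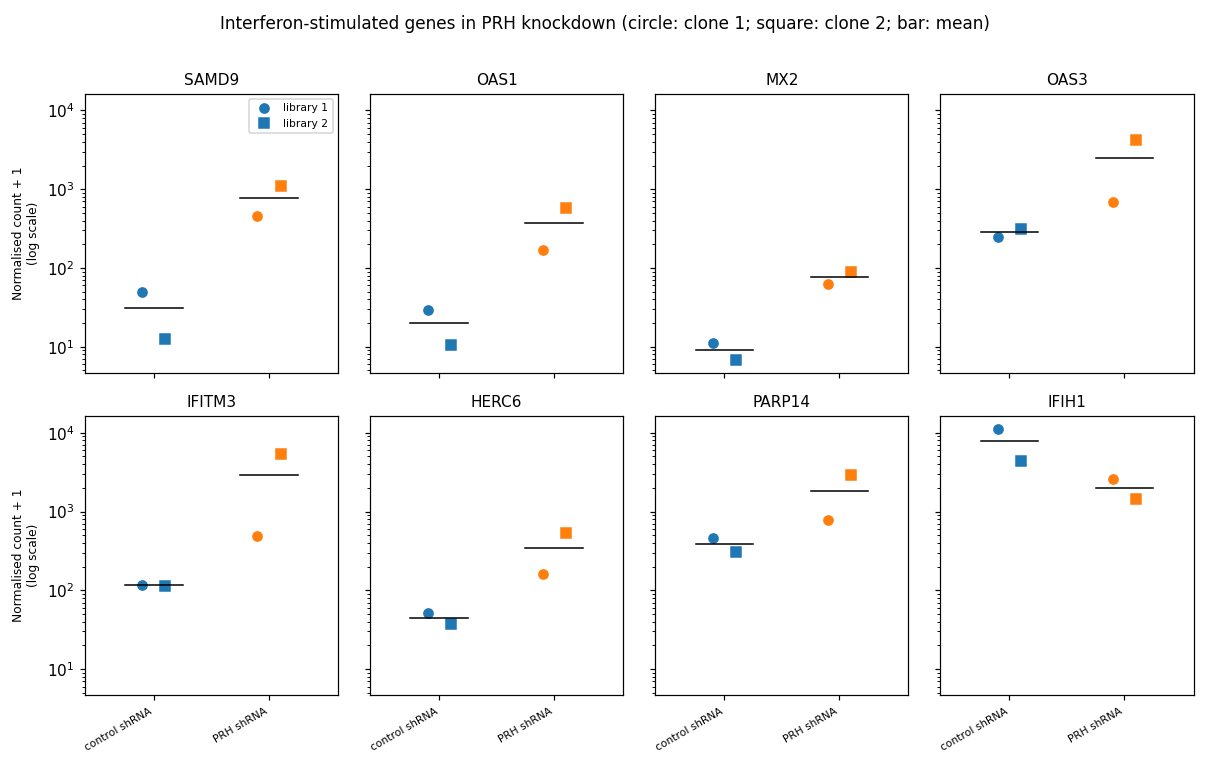
Normalised count + 1 (log axis) of 8 interferon-stimulated genes in the 4 libraries of experiment 1; circles are clone 1, squares clone 2 and bars the mean of 2. In 7 of the 8 both PRH shRNA clones lie above both control clones, with clone 2 above clone 1, and in IFIH1 both lie below.

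In parental cells the PRH virus raised 6 of 22 tested interferon-stimulated genes and lowered 0, where 9.9% of all 13263 genes rose and 5.73% fell. The genes that rose were sensors (DDX58, DHX58), regulatory factors (IRF1, IRF7), IFIT1 and the exonuclease ISG20. DDX58, the RNA sensor RIG-I, stood at 385 and 241 with the PRH virus against 72.6 and 86.4 with the empty virus, a log2 fold change of 1.93 (SE 0.27, adjusted p = 0.00711). DHX58, the related helicase LGP2 that tunes the sensors, stood at 74.5 and 39.1 against 18.7 and 11.1, a log2 fold change of 1.83 (SE 0.46, adjusted p = 0.0407). The third sensor, IFIH1, was at 1104 and 755 against 1371 and 1103 and did not pass (log2 fold change -0.43, 95% interval -0.91 to 0.05).

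IFIT1, which binds viral RNA caps, stood at 105 and 36.5 against 12.9 and 9.97, a log2 fold change of 2.35 (SE 0.54, adjusted p = 0.0304). ISG20 stood at 254 and 175 against 72.6 and 55.4 (1.71, SE 0.28, adjusted p = 0.0103). The regulatory factors moved less. IRF1 stood at 652 and 538 against 403 and 345 (0.67, SE 0.17, adjusted p = 0.0385), and IRF7, the factor that drives interferon alpha genes, at 884 and 819 against 627 and 532 (0.56, SE 0.14, adjusted p = 0.0390). In all 6 genes both PRH virus libraries lay above both empty virus libraries. The genes were picked by passing the test, so this order adds no further support.

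ISG15, at 931 and 555 against 473 and 507, did not pass (log2 fold change 0.55, 95% interval -0.01 to 1.12), nor did its conjugating enzyme UBE2L6, at 158 and 69.5 against 45.6 and 17.7 (adjusted p = 0.0658). The 22 had a median log2 fold change of 0.61, against -0.01 over all genes. The infections were unequal: library A of the PRH virus lay above library B in 20 of the 22, with a median difference of 0.61 in log2, and its HHEX level was 101992 against 69971. Library A of the empty virus also lay above its library B, in 18 of the 22 with a median difference of 0.30. In IFIT2, IFIT3, RSAD2 and HERC5 the PRH virus libraries were 68.3 and 10.4, 70.0 and 10.4, 34.6 and 4.34, and 37.2 and 2.61, so that library A was far above library B. Without library A of the PRH virus 3 members were called, 2 higher and 1 lower, without its library B 10 were, and without library B of the empty virus 2, where 9.83%, 13.1% and 16.3% of all genes were called. ISG20 and DDX58 passed in all 4 fits without 1 library. DHX58, IFIT1, IRF1 and IRF7 did not pass without library A of the PRH virus (log2 fold changes 1.38, 1.60, 0.53 and 0.50) or without library B of the empty virus (1.48, 2.18, 0.55 and 0.44), IFIT1 not without library A of the empty virus (2.52) and IRF7 not without library B of the PRH virus (0.61).

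In the control shRNA cells of experiment 3 the same virus raised 21 of 37 tested interferon-stimulated genes and lowered 0, where 15.2% of all 15836 genes rose and 11.8% fell. The median log2 fold change of the 37 was 1.50, or 1.27 with the 7 genes absent from a group set at their bounds, against 0.00 over all genes. Scaling to equal totals moves the median of all genes from 0.00 to 0.10, and 22 members are then called, all higher, with 26.8% of all genes. Those that rose were 2 of 3 sensors, 3 of 4 transcription factors, 2 of 4 IFIT genes, 2 of 6 OAS and MX genes, 3 of 4 membrane restriction factors, 4 of 5 genes of ISG15 and its conjugation, 2 of 3 PARP and SAMD9 genes, 2 of 3 nucleotide and RNA enzymes and 1 of 5 further genes. With only the 4 control shRNA libraries in the fit 16 of 27 were called, all higher, with 35.3% of all genes. The summed level of the 10 cholangiocyte markers was 7928 and 5489 with the PRH virus against 14703 and 14158 with the empty virus, with 2 to 3 of the 10 at 0. That of 8 fibroblast markers was 57073 and 41643 against 106069 and 90115, with 0 to 3 at 0. The part of either in the result was not tested.

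Of the sensors, DDX58 stood at 698 and 1001 with the PRH virus against 220 and 249 with the empty virus, a log2 fold change of 1.83 (SE 0.24, adjusted p = 0.000715). DHX58 stood at 225 and 153 against 20.5 and 20.4 (3.12, SE 0.50, adjusted p = 0.00200). IFIH1 again lay slightly lower, at 2139 and 2335 against 2565 and 2878, and did not pass (adjusted p = 0.105). Of the regulatory factors, IRF1 stood at 1312 and 1413 against 543 and 573 (1.29, SE 0.18, adjusted p = 0.000922) and IRF7 at 2187 and 2241 against 1109 and 763 (1.27, SE 0.21, adjusted p = 0.00215). STAT2 rose by 0.78, while IRF9, its partner in the DNA-binding complex, was at 678 and 750 against 673 and 755, a difference of 0.00 with a 95% interval from -0.38 to 0.38.

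Among the effectors, ISG15 stood at 1725 and 1784 against 861 and 738, a log2 fold change of 1.14 (SE 0.13, adjusted p = 0.000361). Its conjugation machinery rose with it: the E2 enzyme UBE2L6 stood at 239 and 305 against 60.5 and 71.3 (2.02, SE 0.27, adjusted p = 0.000744), and the ligase HERC5 at 26.4 and 104 against 0 and 0, at least 20.2-fold higher. USP18, the protease that removes ISG15, was at 414 and 550 against 336 and 396 and did not pass (0.39, 95% interval -0.10 to 0.87).

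OAS3, an oligoadenylate synthetase, stood at 145 and 105 against 8.20 and 21.5, a log2 fold change of 3.11 (SE 0.35, adjusted p = 0.000316). IFIT3, a partner of IFIT1, stood at 31.5 and 46.4 against 0 and 1.13, where the empty virus libraries together hold a single read. IFITM2 stood at 74.1 and 85.0 against 4.10 and 21.5 (2.91, SE 0.55, adjusted p = 0.00451). PARP14, an ADP-ribosyltransferase, stood at 484 and 593 against 133 and 267 (1.50, SE 0.27, adjusted p = 0.00377), and IFI6, a mitochondrial protein that counters cell death, at 495 and 429 against 174 and 189 (1.34, SE 0.24, adjusted p = 0.00321). In each of these both PRH virus libraries lay above both empty virus libraries, an order that genes picked by passing the test nearly always show.

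Of the remaining 9 that passed, IFIT1, STAT2, HERC6, ISG20, IFITM3 and PARP9 had log2 fold changes from 0.78 to 3.00. OAS2, BST2 and CMPK2 had 0 reads with the empty virus and stood at 5.11 to 20.4 with the PRH virus, at least 4.04-fold, 6.15-fold and 1.69-fold higher by the same floor. IFIT1 excepted, each of these 9 lost its call in at least 1 fit without 1 library, and CMPK2 and ISG20 in all 4. SAMD9 and MX2, both among the 4 of smallest p in the PRH shRNA clones, had 0 reads in all 4 control shRNA libraries, with either virus. Of the 21 calls 13 were kept in each of the 4 fits that leave out 1 library of the comparison. In those fits 13 to 17 members were called, and 13 without library B of the PRH virus, against 15.9% of all genes.

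The 6 genes that rose in parental cells all rose in control shRNA cells too, which is 100% of the 6 and 28.6% of the 21, and the experiments share no library. The matching share over all genes was not counted, so the 100% cannot be read as particular to these genes. Over the 22 genes tested in both, 19 had the same sign. Across these 22 genes Pearson's r of the log2 fold changes was 0.52 and Spearman's rho 0.63, and across all 13148 genes tested in both r was 0.77 and rho 0.71. Genes are not independent replicates, and these are descriptions.

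**Figure D3:**
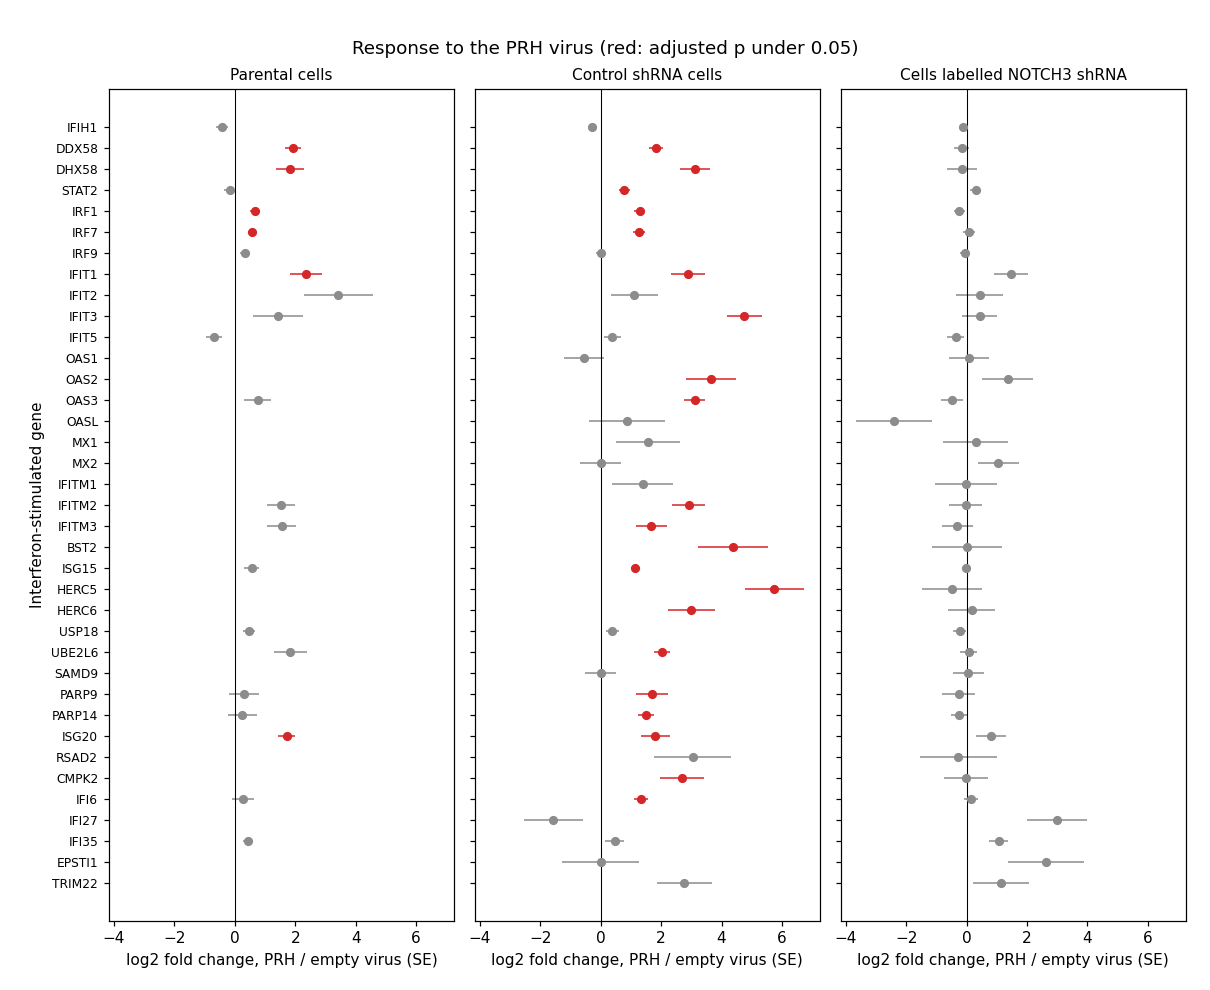
Log2 fold change (with its SE) of PRH virus against empty virus for each tested interferon-stimulated gene, in parental cells, control shRNA cells and cells labelled NOTCH3 shRNA; red points passed at an adjusted p under 0.05. There are 6 red points in the first panel, 21 in the second and 0 in the third.

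In the cells labelled NOTCH3 shRNA the virus changed no interferon-stimulated gene by the test: 0 of 37 rose and 0 fell, where 1.9% of all 15836 genes rose and 0.309% fell. The median log2 fold change was 0.01. At an unadjusted p under 0.05 there were 3 of the 37, against 17.3% of all genes. edgeR called 0 of the 37, against 403 of all 15836 genes, and DESeq2 called 2, against 6.92% of all genes. The smallest p belonged to IFI35, at 441 and 690 with the PRH virus against 236 and 296 (log2 fold change 1.06, adjusted p = 0.132). IFI27 followed, at 10.4 and 14.1 against 1.72 and 0, then IFIT1, at 98.4 and 203 against 59.3 and 43.3. EPSTI1 came next, at 20.0 and 11.7 against 6.02 and 0 (adjusted p = 0.327). For ISG15 the interval of the log2 fold change was narrow, from -0.33 to 0.27, and for IRF7 it ran from -0.39 to 0.54.

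The difference between the shRNA backgrounds in the response to the virus was tested as an interaction. It was negative for 11 of 37 interferon-stimulated genes and positive for 0, where 4.91% of all genes were called negative and 3.48% positive. The median interaction was -1.44 over the 37 and -0.01 over all genes. In OAS3 the response was smaller in the cells labelled NOTCH3 shRNA, an interaction of -3.60 in log2 (SE 0.50, adjusted p = 0.00315), in which OAS3 stood at 11810 and 11976 with the PRH virus and at 16740 and 16581 with the empty virus. In IFIT3 the interaction was -4.32 (SE 0.82, adjusted p = 0.0129), with 261 and 306 against 224 and 196. IFIT3 was at 0 and 1.13 in control shRNA cells with the empty virus, so this interaction depends on the pseudocount.

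The start levels of these genes differed between the backgrounds. ISG15 stood at 1762 and 1710 with the empty virus in the cells labelled NOTCH3 shRNA, close to its 1725 and 1784 with the PRH virus in control shRNA cells, and at 1612 and 1798 with both; the interaction was -1.17 (SE 0.19, adjusted p = 0.00599). DDX58 stood at 834 and 1141 and then at 787 and 959 with the PRH virus, an interaction of -2.00 (SE 0.34, adjusted p = 0.00836). IRF1 stood at 1093 and 930 and then at 979 and 744, an interaction of -1.53 (SE 0.25, adjusted p = 0.00688). UBE2L6 stood at 490 and 527 and then at 512 and 553, an interaction of -1.96 (SE 0.38, adjusted p = 0.0145). In all 4 genes the libraries of the cells labelled NOTCH3 shRNA overlapped between the viruses, whereas those of the control shRNA cells did not. The interaction test picked these genes, so that pattern largely restates it.

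The other 5 called were DHX58, PARP14, HERC5, IRF7 and IFITM2, at -3.27, -1.75, -6.24, -1.19 and -2.93. HERC5 is at 0 in both control shRNA libraries with the empty virus, so its value depends on the pseudocount. The PRH dose differed as well, with HHEX at 228980 and 330421 in control shRNA cells against 71910 and 46576, and so did the cholangiocyte markers. The PRH dose, the start level and the line cannot be told apart here. ISG15, DDX58, OAS3 and IRF1 kept the call in each of the 8 fits without 1 library. The count of calls was 4 without library A or B of the PRH virus in the cells labelled NOTCH3 shRNA or without its library B in control shRNA cells, against 4.74%, 3.19% and 4.75% of all genes. It was 5 without the intensity trend, against 2.22%.

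**Figure D4:**
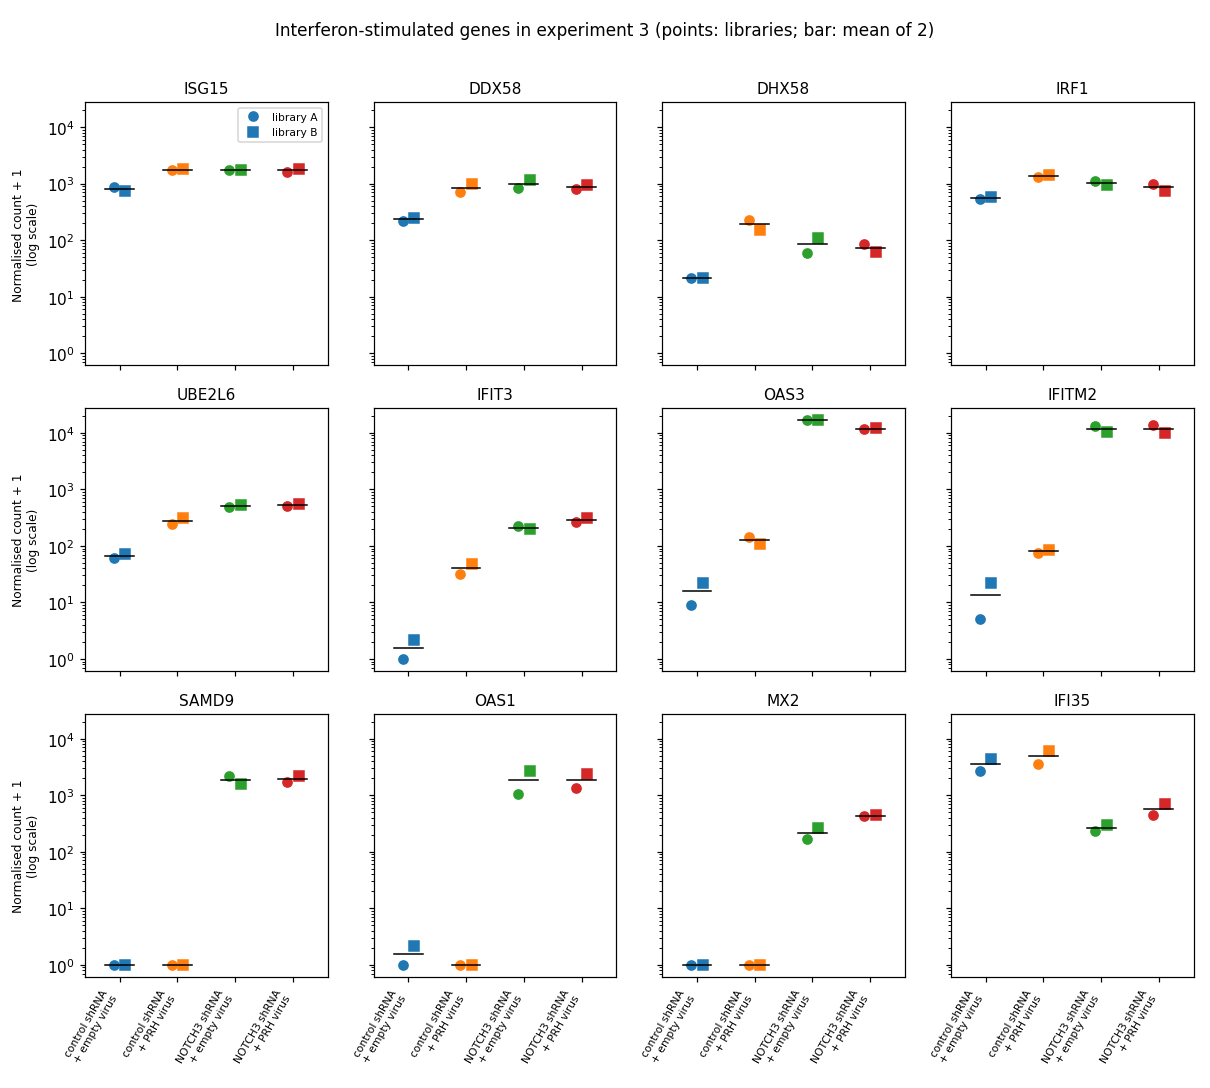
Normalised count + 1 (log axis) of 12 interferon-stimulated genes in the 8 libraries of experiment 3; circles are library A, squares library B and bars the mean of 2. ISG15, DDX58 and IRF1 are lowest in control shRNA cells with the empty virus, SAMD9, OAS1 and MX2 are at 0 or 1 read in the control shRNA libraries, and IFI35 is lower in all 4 libraries of the NOTCH3 shRNA label.

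With the empty virus, 29 of 37 interferon-stimulated genes were higher in the cells labelled NOTCH3 shRNA and 3 were lower, where 28.9% of all genes were higher and 23.1% lower. The median log2 difference of the 37 was 2.93, or 2.29 with 9 genes at their bounds, against 0.04 over all genes. Of the 29, OAS1, OAS2, OASL, MX1, MX2, SAMD9, IFITM1, CMPK2 and TRIM22 would not have entered the test without the cells labelled NOTCH3 shRNA. They could hardly be called lower, and the filter acted on all genes alike. Since NOTCH3 was not lower in these libraries, the comparison is of the line with that label and the control line. The line and the shRNA cannot be told apart.

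SAMD9 stood at 2151 and 1598 against 0 and 0, at least 580-fold higher. OAS1 stood at 1054 and 2637 against 0 and 1.13, the latter a single read, and OAS3 at 16740 and 16581 against 8.20 and 21.5 (10.18, SE 0.35, adjusted p = 8.76e-08). MX2 stood at 166 and 263 against 0 and 0, at least 66.4-fold higher. All 6 genes of the OAS and MX families were called higher. All of them except OAS3 entered the test only through this line, so their direction was largely fixed by entry.

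IFITM3 stood at 17446 and 14077 against 7.17 and 30.6, and IFITM2 at 13397 and 10383 against 4.10 and 21.5. These proteins act at the membranes where viruses fuse. PARP14 stood at 7852 and 6810 against 133 and 267 (5.27, SE 0.27), and PARP9, which works with the ubiquitin ligase DTX3L, at 2266 and 2389 against 18.4 and 71.3 (5.96, SE 0.53). IFIT5 stood at 1553 and 1575 against 106 and 182 (3.49, SE 0.28) and IFIT3 at 224 and 196 against 0 and 1.13. UBE2L6 stood at 490 and 527 against 60.5 and 71.3 (2.93, SE 0.27). The groups did not overlap in any of these genes, which were picked by passing the test, so this adds no further support.

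The 3 lower genes were IFI35, at 236 and 296 against 2677 and 4333 (-3.68, SE 0.32, adjusted p = 1.36e-05), IFIH1, at 1746 and 1811 against 2565 and 2878 (-0.61), and the scarce IFI27, at 1.72 and 0 against 14.3 and 37.3, which did not pass without library B of the control shRNA cells (-3.22). IRF9 did not differ by the test, with an interval from -0.44 to 0.31. The 5 that did not pass were ISG20, RSAD2, EPSTI1, BST2 and IRF9, and 25 of the 32 calls were kept in each fit without 1 library.

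With the PRH virus in both lines, 20 of 37 were higher in the cells labelled NOTCH3 shRNA and 7 lower, where 26.1% of all genes were higher and 21.1% lower. The genes that entered only through this line, among them SAMD9, OAS1, MX2 and EPSTI1, could hardly be called lower here either. SAMD9, at 1707 and 2162 against 0 and 0, was at least 709-fold higher, OAS1, at 1337 and 2366 against 0 and 0, at least 679-fold, and MX2, at 426 and 444 against 0 and 0, at least 160-fold. OAS3 stood at 11810 and 11976 against 145 and 105 (6.58, SE 0.35), IFITM3 at 14847 and 10725 against 41.7 and 59.9 (7.95, SE 0.51) and IFITM2 at 13508 and 9910 against 74.1 and 85.0 (7.17, SE 0.55).

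PARP14 stood at 6184 and 6118 against 484 and 593 and PARP9 at 1910 and 1953 against 163 and 87.9. IFIT5 stood at 1110 and 1322 against 161 and 203, HERC6 at 1049 and 866 against 15.3 and 25.1, and STAT2 at 2095 and 1941 against 813 and 888. Their log2 differences ran from 1.25 to 5.53. HERC6 belongs to the HERC family of ubiquitin ligases and is the main ligase for ISG15 in the mouse.

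IRF1, at 979 and 744 against 1312 and 1413, was lower by the test (-0.67, adjusted p = 0.0123), as were IRF7 (-0.56), DHX58 (-1.36), ISG20 (-2.13), IFIH1 (-0.43), BST2 (-3.66) and IFI35, at 441 and 690 against 3565 and 6146. IRF1, IRF7 and DHX58 had been higher in these cells with the empty virus, whereas IFIH1 was lower and STAT2 higher with either virus. IRF1 did not pass without library B of either group (-0.48 and -0.62), IFIH1 not without library A of the cells labelled NOTCH3 shRNA or B of the control shRNA cells (-0.37 for both), DHX58 and IRF7 did not pass in any of the 4 fits without 1 library, ISG20 did not without library A (-1.79) and BST2 not without library B (-2.93) of the cells labelled NOTCH3 shRNA. Of the higher genes EPSTI1 (4.03), IFI6 (0.55 and 0.69), UBE2L6 (0.80 to 1.03) and USP18 (0.45 and 0.52) also lost the call in some of these fits. ISG15 and DDX58 did not differ by the test, with intervals of the log2 difference from -0.34 to 0.25 and from -0.49 to 0.60.

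The line labelled NOTCH3 shRNA and the PRH shRNA clones come from different experiments that share no library. Across the 33 interferon-stimulated genes tested in both, Pearson's r between the log2 differences of PRH shRNA clones and of cells labelled NOTCH3 shRNA with the empty virus was 0.83 and Spearman's rho 0.81, with the same sign in 26. Across all 14359 genes tested in both r was 0.72 and rho 0.52, so the likeness is not limited to these genes. OAS1, OAS3, MX2, IFITM2, IFITM3, SAMD9, HERC6 and PARP14 stood higher in both, and IFIH1 and IFI35 lower in both, although none passed in the PRH shRNA clones.

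Few reads fell on the interferon genes themselves. IFNA1, IFNA2 and IFNG had 0 reads in all 16 libraries. IFNB1, the interferon that most cell types release on infection, had 0 reads in all 8 libraries of experiment 3, 1 read in each PRH virus library of experiment 2 and 0 to 7 reads in experiment 1. IFNE and IFNW1 reached 65.1 and 68.0 normalised counts, both in PRH shRNA clone 1. A count of 0 allows up to 3 reads per library, a limit for counting error alone, because reads were not tagged by molecule. The lambda interferon genes IL28A, IL28B and IL29 had 0 reads in all 6 libraries given the empty virus. In control shRNA cells with the PRH virus they had 0, 4 and 0 reads in library A and 14, 0 and 10 in library B. In parental cells with it they had 5, 6 and 4 reads in library A and 0, 1 and 0 in library B, and in cells labelled NOTCH3 shRNA 6, 0 and 0 and 0, 0 and 10. These 3 genes are near-identical in part and reads may be split between them, and none reached the filter of the test.

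Of 40 symbols listed for the pathway that leads to interferon-stimulated genes (ligands, receptors, kinases, adaptors and inhibitors), 36 were found. The list names the lambda interferon genes and their receptor chain IL28RA under both older and newer symbols, so it holds fewer genes than symbols. Of those tested, 6 of 24 rose and 1 fell with the PRH virus in parental cells, and 8 of 28 rose and 1 fell in control shRNA cells. Over all genes 9.9% rose and 5.73% fell in parental cells, and 15.2% and 11.8% in control shRNA cells. IKBKE, the kinase that activates IRF3 and IRF7, rose in both, to 277 and 259 from 80.7 and 101 in parental cells (1.56) and to 978 and 864 from 191 and 210 in control shRNA cells (2.19, SE 0.18, adjusted p = 7.00e-05). IL10RB, a receptor chain for interferon lambda, rose by 0.62 and 0.82. The gamma receptor chains IFNGR2 in parental cells (0.76) and IFNGR1 in control shRNA cells (0.58) and the adaptor TICAM1 in parental cells (0.63) also rose. TMEM173, the adaptor STING, stood at 58.8 and 35.7 against 8.20 and 0 in control shRNA cells (3.95, SE 0.85, adjusted p = 0.00888). TBK1 fell by 0.45 in parental cells and JAK1 by 0.83 in control shRNA cells. In parental cells TBK1 kept its call in 1 of 4 fits without 1 library, IL10RB lost it without library A of the PRH virus (0.59) and TICAM1 without library A of the empty virus (0.45). In control shRNA cells IFNGR1 (0.47) and IL10RB (0.63) lost it without library B of the PRH virus and TMEM173 (3.60) without its library A.

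In cells labelled NOTCH3 shRNA the virus raised 1 of these 28 genes, the feedback inhibitor SOCS3 (0.66, adjusted p = 0.0266), which passed in only 1 of the 4 fits without 1 library, where 1.9% of all genes rose. The interaction was negative for IKBKE (-2.28) and IFNGR1 (-0.88) and positive for JAK1 (0.69), against 4.91% and 3.48% of all genes. IKBKE kept its call in each of the 8 fits without 1 library, and IFNGR1 and JAK1 did not. Between the lines with the empty virus 8 of 28 were higher and 10 lower in cells labelled NOTCH3 shRNA, where 28.9% of all genes were higher, a share like that of the list, and 23.1% lower. TLR3, a sensor of double-stranded RNA, stood at 207 and 391 against 1.02 and 0, and IL28RA, the receptor chain particular to interferon lambda, at 811 and 535 against 1.02 and 7.92. IFNGR1 (1.82) and IKBKE (1.99) were higher, and JAK1 (-1.37), TICAM1 (-1.35), SOCS3 (-1.53) and IFNGR2 (-1.42) lower. With the PRH virus, where 26.1% of all genes were higher and 21.1% lower, 5 were higher, among them IL28RA, TLR3, IFNGR1 (0.95) and TMEM173 (4.00), and 11 lower, among them TICAM1 (-1.53), IL10RB (-1.89), IFNGR2 (-1.56) and the DNA sensor MB21D1 (-1.70). In the PRH shRNA clones 0 of 28 passed, where 0% of all genes did.

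A further 50 interferon-induced genes outside the 43 were counted the same way, and 49 were found. With the PRH virus 8 of 31 rose and 0 fell in parental cells, 16 of 37 rose and 1 fell in control shRNA cells, and 1 of 37 rose and 0 fell in cells labelled NOTCH3 shRNA. Over all genes 9.9%, 15.2% and 1.9% rose and 5.73%, 11.8% and 0.309% fell. CCL5, a chemokine that draws T cells, stood at 277 and 120 against 1.17 and 0 in parental cells, and IFI30, a lysosomal thiol reductase of antigen processing, rose by 2.97 there and by 3.57 in control shRNA cells. C19orf66 (1.06) and TRIM14 (0.69) rose in parental cells, and APOL6 (2.33), TRIM25 (0.98), the ligase that activates RIG-I, and DTX3L (1.73) in control shRNA cells, where ZC3HAV1 fell by 0.37, a call lost in all 4 fits without 1 library. C19orf66 also rose in the cells labelled NOTCH3 shRNA (1.12, adjusted p = 0.0289), though in none of the 4 fits without 1 library. The interaction was negative for 9 of 37 and positive for 0, against 4.91% and 3.48% of all genes, led by IFI30 (-3.38), APOL6 (-2.54), TRIM25 (-1.07) and APOL2 (-1.94).

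Between the lines with the empty virus 23 of the 37 were higher in cells labelled NOTCH3 shRNA and 4 lower, against 28.9% and 23.1% of all genes. PARP12 (5.40), APOL6 (5.52), DTX3L (4.63) and LGALS3BP (8.79) were higher, and RNF213 (-1.15), SHISA5 (-0.62), C19orf66 (-0.95) and TDRD7 (-0.52) lower, TDRD7 in only 1 of 4 fits without 1 library. With the PRH virus 18 were higher and 9 lower, against 26.1% and 21.1% of all genes, with LGALS3BP (8.85), PARP12 (3.30), NMI (5.81) and APOL6 (2.98) on one side and RNF213 (-1.19), SHISA5 (-0.74), IFI30 (-1.61) and TRIM25 (-0.65) on the other. In the PRH shRNA clones 0 of 37 passed, where 0% of all genes did.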

How the data were processed

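Polyadenylated RNA of CCLP1 cells was sequenced in 16 libraries. The tools were Trim Galore (trimming), TopHat (alignment, hg19), featureCounts (counting) and DESeq2 (normalisation), per the submitters' processing notes. Not given in the sources used here are versions and the handling of strand. What the authors deposited is a signal, counts divided by a size factor of each library (0.691 to 1.37), as their whole-number steps show: 100% were whole multiples within 1e-06, and reads were recovered from them.

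Lines with a date in place of a symbol (28) were left out, 0.208% to 0.276% of reads. Replicates were no duplicates (chi-square over its degrees of freedom 18.5 to 633). Libraries A and B of experiments 2 and 3 are names only. Comparisons used limma 3.58.1 under R 4.3.3, on log2(value + 1), with an intensity trend and Benjamini-Hochberg adjustment over all genes with at least 10 in 2 libraries, called at 0.05. It was tested on simulated data. Fold changes understate low genes, and p-values reflect no more than the spread of these libraries, from 1 cell line. edgeR 4.0.16 and DESeq2 1.42.0 on the recovered reads, a pseudocount of 5, no filter, no trend, equal totals, a replicate block and leaving out each library were alternatives; the last leaves 1 library in a group, assumed to vary like the other groups.

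The members and lists were chosen with earlier results of these data known. Values are given for members that passed, at most 12 by adjusted p (6 for the interaction), filled up to 4 by unadjusted p, and for at most 4 per direction of each further list. Other genes named were chosen after their values were seen. Protein sequences and hg19 positions were not used here. Promoters are from another build than hg19 and were matched by symbol, DDX58 as RIGI.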

Additional observations from a re-analysis of the deposited data

Results flagged for a closer look

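The response to the PRH virus differed between the shRNA backgrounds, by the interaction test, in 11 of 37 interferon-stimulated genes, all negative. Over all genes 4.91% were called negative and 3.48% positive. The response in cells labelled NOTCH3 shRNA minus that in control shRNA cells was -3.60 for OAS3, -1.17 for ISG15, -1.53 for IRF1, -2.00 for DDX58, -4.32 for IFIT3 and -1.96 for UBE2L6 in log2. It was -3.27 for DHX58, -1.75 for PARP14, -6.24 for HERC5, -1.19 for IRF7 and -2.93 for IFITM2. HHEX with the PRH virus stood at 228980 and 330421 in control shRNA cells and at 71910 and 46576 in cells labelled NOTCH3 shRNA, and its part in the difference was not tested.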

How the results depend on the processing

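No count of interferon-stimulated genes reversed under any alternative run. For PRH shRNA, where limma called 0, DESeq2 called 10, and leaving out 1 library gave 1 to 9. With the PRH virus in parental cells the 6 calls became 2 with no filter on low values and 2 to 10 without 1 library. In control shRNA cells the 21 became 13 to 17 without 1 library, and 16 in a fit of the 4 control shRNA libraries alone, chosen after seeing the data. In cells labelled NOTCH3 shRNA DESeq2 called 2 where limma called 0, and a fit of its 4 libraries alone called 0. The 11 interactions became 5 with no intensity trend and 4 to 11 without 1 library. The counts between the lines stayed within 1.5 times of 32 and 27 under every alternative run. Over all genes, leaving out the intensity trend took the calls with the PRH virus from 2073 to 758 in parental cells, from 4282 to 2730 in control shRNA cells and from 350 to 82 in cells labelled NOTCH3 shRNA, and the interaction from 1329 to 351. DESeq2 called 703 genes for PRH shRNA where limma called 0, 1096 in cells labelled NOTCH3 shRNA and 2212 in the interaction. The fit of the 4 libraries labelled NOTCH3 shRNA alone called 3 of all genes. The cause was not tested for any of these changes.

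With the replicate block 0 interferon-stimulated genes were called for PRH shRNA, as without it, and 10 of all genes were. Deviations of same-numbered clones correlated (r = 0.58), but 2 pairs do not make the numbers a pairing. No paired analysis was possible for experiments 2 and 3 because their columns carry no replicate number. Depth limits the genes with 0 reads in a group, for which only a bound from 3 counts per library can be given.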
